A study of Mus musculus with 18 samples.

Results

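The 44 genes described here encode the chains of mouse collagens. They were chosen by symbol alone, as every gene in the table named Col, a number, a and a number, out of 35727 gene IDs, and all 44 are annotated as protein coding. Of these, 35 had enough counts to be tested among 14864 genes, and the remaining 9 did not exceed a group mean of 0.531 counts per 1000000 counts (CPM). The libraries came from mouse cells in culture, all sequenced as mRNA at day 7 in EGM2, an endothelial growth medium. There were 3 libraries each of heart fibroblasts, heart iECs and heart endothelial cells (ECs), and 3 each of lung fibroblasts, lung iECs and lung ECs. The fibroblasts were labelled as controls, and the titles of the iEC libraries read SEG, a term the labels leave unexplained, as they do iEC, which usually stands for induced endothelial cell. The series was designed to compare these groups for the endothelial identity of each organ. Strain, age, how the iECs were made and how the ECs were isolated are not given in the sources used here.

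Collagens are extracellular proteins made of 3 chains wound around each other, and each chain is a separate gene product. Fibrillar chains form the ropes of connective tissue, and fibroblasts are their main makers. Type IV chains form the sheet under endothelium and epithelium known as the basement membrane. Type VI chains form beaded filaments near cells, FACIT chains sit on the surface of fibrils, and the multiplexins XV and XVIII lie at basement membranes, where their ends can be cut off to give fragments that act on blood vessels. The chains are folded and hydroxylated inside the cell, trimmed and crosslinked outside it, and read by integrins and discoidin domain receptors.

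Library totals ranged from 17747632 to 23775372 estimated counts, and all CPM values below are scaled by the TMM factors of the fit. Nothing in the labels says that replicates came from separate cultures or animals, so the p-values measure the spread between these libraries, which may be technical. All 9 endothelial markers examined were higher in ECs than in fibroblasts of both organs, and 7 of them in heart iECs (1 was lower) and 8 in lung iECs. Their summed level was 1628 to 1774 CPM in heart ECs, 2612 to 2712 CPM in lung ECs, 2170 to 2325 CPM in heart iECs and 1963 to 2289 CPM in lung iECs, against 236 to 264 CPM in heart fibroblasts and 14.8 to 21.8 CPM in lung fibroblasts. The 9 fibroblast markers, none a collagen, summed to 3288 to 3568 CPM in heart ECs, compared with 5505 to 6153 CPM in heart fibroblasts and 995 to 1108 CPM in heart iECs. In lung they summed to 2210 to 2798 CPM in fibroblasts, 717 to 816 CPM in iECs and 733 to 1218 CPM in ECs. The 6 macrophage markers summed to 6987 to 9309 CPM in lung ECs, 2106 to 3522 CPM in lung iECs, 934 to 1219 CPM in lung fibroblasts and 180 to 329 CPM in all heart libraries. At least 1 count of each endothelial, fibroblast and macrophage marker was found in every group. In bulk RNA, fewer cells of a type and less RNA per cell cannot be told apart.

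Some lung libraries stood apart from their group in collagen level. Among the 24 chains with a group mean of at least 10 CPM, lung iEC replicate 3 was the lowest of its group for 18, lung fibroblast replicate 1 for 22, and lung EC replicate 3 was the highest for 21. The median log2 distance of lung iEC replicate 3 from the mean of the other libraries of its group was -0.33 over these chains, that of lung fibroblast replicate 1 was -0.30 and that of lung EC replicate 3 was 0.37. It was 0.25 for lung iEC replicate 1 and -0.24 for lung EC replicate 2, and from -0.11 to 0.13 in heart libraries. Rank counts were high in heart too: heart EC replicate 2 was the highest of its group for 17 chains and replicate 1 the lowest for 16. Lung iEC replicate 3 also held the highest summed macrophage markers of its group (3522 CPM against 3026 and 2106 CPM), and lung EC replicate 3 the lowest of its own (6987 CPM against 8604 and 9309 CPM). In lung EC replicate 3 the fibroblast markers summed to 733 CPM against 1029 and 1218 CPM in the others, smooth muscle and pericyte markers to 2043 CPM against 1541 and 1315 CPM, and mesothelial markers to 294 CPM against 181 and 191 CPM. Lung fibroblast replicate 1 had the lowest fibroblast markers of its group (2210 CPM against 2798 and 2540.02 CPM), the highest smooth muscle and pericyte markers (1151 CPM against 834 and 879.6 CPM) and the highest macrophage markers (1219 CPM against 971 and 934 CPM). The smooth muscle and pericyte markers of lung iEC replicate 3 were the lowest of its group (3171 CPM against 3445 and 3865 CPM). The part of these markers in the collagen values was not tested. Calls that depend on one of these libraries are given with their value without it.

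Collagen chains made up a large share of the counts of all groups. The 44 genes held 4.41% ± 0.144 (SD, n = 3) of counts in heart fibroblasts, 4.07% ± 0.122 in heart iECs and 3.80% ± 0.136 in heart ECs. In lung the share was 5.22% ± 0.534 in fibroblasts, 2.80% ± 0.396 in iECs and 1.77% ± 0.245 in ECs. The lung fibroblast libraries held 4.61%, 5.60% and 5.44%, the lung iEC libraries 3.09%, 2.97% and 2.35% and the lung EC libraries 1.59%, 1.66% and 2.04%, so that the 3 lung groups did not overlap. Each heart iEC library (4.02%, 4.21% and 3.98%) lay below each heart fibroblast library (4.26%, 4.54% and 4.44%). As a share of counts per kb of merged exon length these 2 groups were close, at 1.85% in heart iECs and 1.87% in heart fibroblasts. Without lung iEC replicate 3 the lung iEC share was 3.03%.

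**Figure D1:**
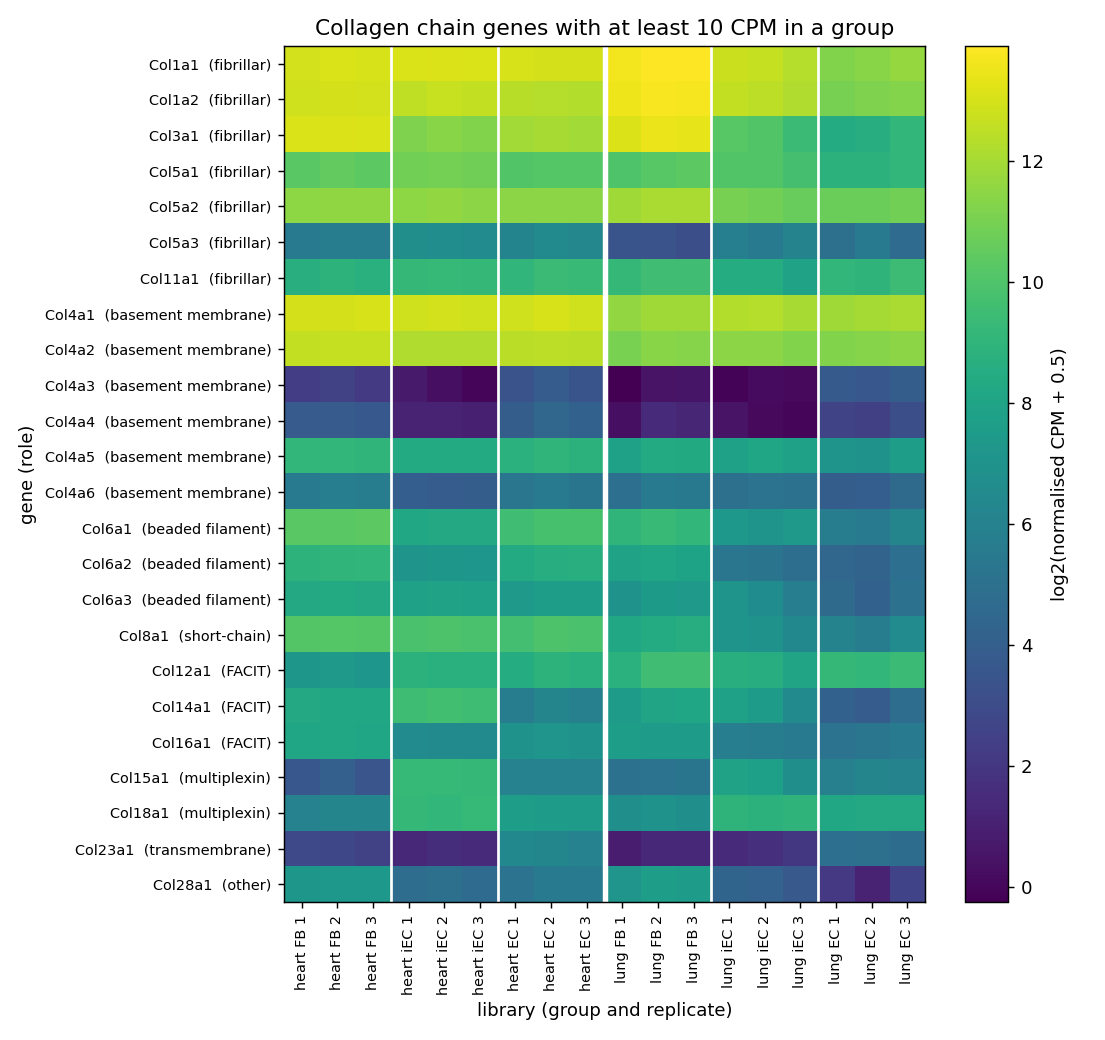
Level of the 24 collagen chain genes with a group mean of at least 10 CPM (rows, ordered by role) in each of the 18 libraries (columns, by group and replicate), as log2 of normalised CPM with 0.5 added. The fibrillar chains Col1a1 and Col1a2 and the basement membrane chains Col4a1 and Col4a2 are high in every library, Col3a1 and Col28a1 are lower in iECs and ECs than in fibroblasts of the same organ, and Col15a1 and Col18a1 are higher.

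The make-up of the collagen mRNA differed by organ and cell type. Scaled by the length of the longest annotated transcript, fibrillar chains made up 61.8% ± 0.538 of collagen counts per kb in heart fibroblasts, 59.1% ± 0.702 in heart iECs and 57.6% ± 1.05 in heart ECs. In lung they made up 84.0% ± 0.321 in fibroblasts, 65.0% ± 1.35 in iECs and 52.6% ± 1.09 in ECs (SD, n = 3). Basement membrane chains ran the other way in lung, from 10.7% ± 0.270 in fibroblasts to 28.5% ± 1.53 in iECs and 40.8% ± 1.14 in ECs, while in heart they held 28.1% ± 0.383, 30.0% ± 0.630 and 32.9% ± 0.544. The 2 multiplexin chains rose from 0.181% ± 0.00753 of collagen counts per kb in heart fibroblasts to 3.34% ± 0.127 in heart iECs, and from 0.310% ± 0.0215 to 2.96% ± 0.145 in lung. As shares of 1 whole, these values move together. Per kb, the leading chain by longest transcript was Col3a1 in heart fibroblasts (1592 CPM per kb), Col1a1 in heart iECs (1493) and heart ECs (1397), Col1a2 in lung fibroblasts (2447, beside 2445 for Col1a1), Col1a1 in lung iECs (1052) and Col4a1 in lung ECs (627). This order depends on the gene model: by longest transcript the Col1a1 to Col1a2 ratio per kb was 0.98 in heart fibroblasts, and by all exons merged it was 2.06.

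**Figure D2:**
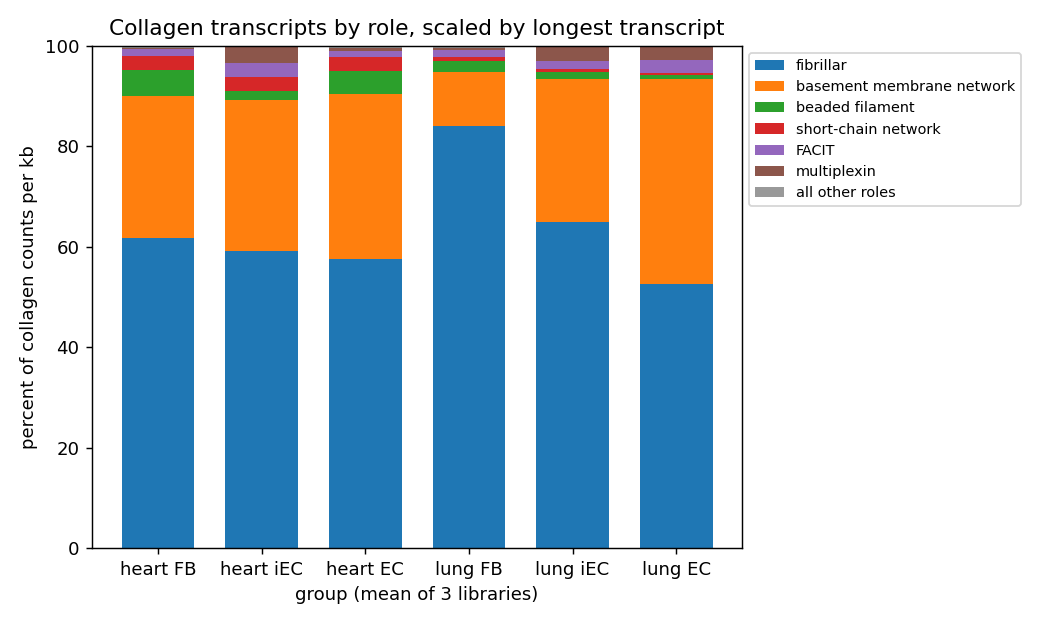
Share of each collagen role in the collagen counts per kb of longest transcript (y axis, percent) for each group (x axis, mean of 3 libraries). Fibrillar chains take the largest share in every group, from 52.6% in lung ECs to 84.0% in lung fibroblasts, and the multiplexin band is visible in iECs of both organs and in lung ECs.

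Many collagen genes differed between fibroblasts and iECs or ECs, in both directions. Of the 35 tested chains, heart iECs held 10 above and 13 below the heart fibroblast level at an edgeR adjusted p under 0.05, where 26% of all tested genes were higher and 24.6% lower. For lung iECs it was 7 above and 14 below, against 25.9% and 24.7% of all genes. Heart ECs had 8 higher and 9 lower (background 24.2% and 23.3%), and lung ECs 10 higher and 16 lower (29.3% and 28.7%). As a share of the tested chains, called members made up 65.7%, 60%, 48.6% and 74.3% in these comparisons, beside 50.7%, 50.6%, 47.4% and 58.1% of all genes. The median log2 change of the chains was -0.28 in heart iECs, -0.44 in lung iECs, -0.19 in heart ECs and -0.73 in lung ECs, beside medians of 0.02, 0.00, 0.00 and 0.00 over all genes tested. The heart EC counts were thus near the background. The iEC and EC comparisons of an organ share their fibroblast libraries and are not independent.

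**Figure D3:**
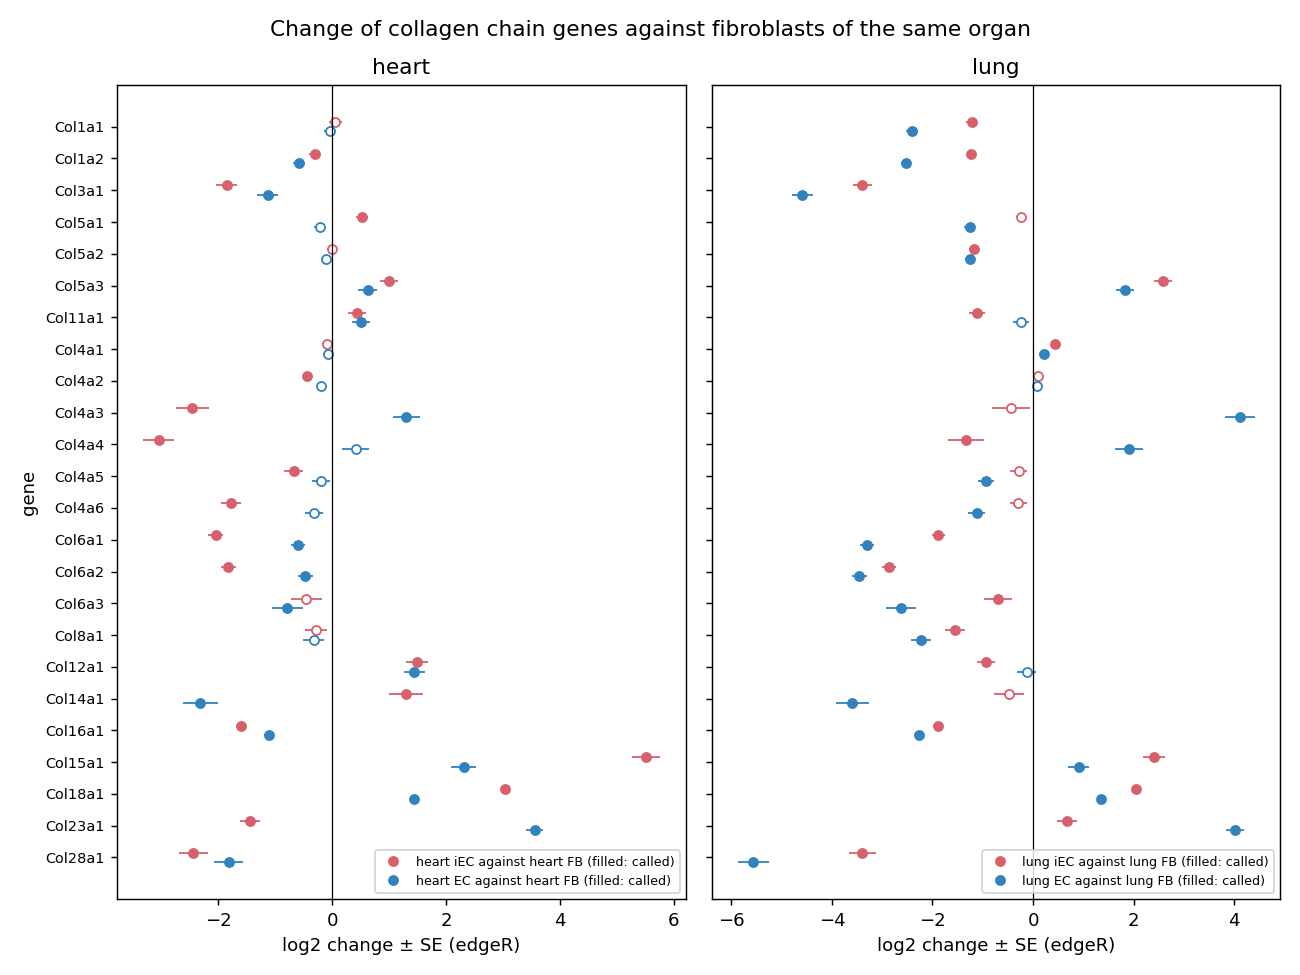
Change of each of the 24 chains against fibroblasts of the same organ, with heart left and lung right. The x axis is the log2 change from edgeR ± an SE derived from its test statistic. Red marks iECs and blue marks ECs, with filled points for called chains. Col5a3, Col15a1 and Col18a1 lie right of 0 in all 4 comparisons. Chains that lie left of 0 in all 4 include Col1a2, Col3a1, Col6a1, Col6a2, Col6a3, Col8a1, Col16a1 and Col28a1.

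The fibrillar group held 11 tested chains, of which 4 were higher and 2 lower in heart iECs, 2 higher and 5 lower in lung iECs, 2 higher and 2 lower in heart ECs and 2 higher and 5 lower in lung ECs. Among all genes tested 50.7%, 50.6%, 47.4% and 58.1% were called in these 4 comparisons, shares that hold for each role below. The largest fall of a fibrillar chain was that of Col3a1, the only chain of type III collagen, which shares fibrils with type I in soft tissues and vessel walls. In heart it measured 8670, 9103 and 8794 CPM in fibroblasts, 2279, 2649 and 2427 CPM in iECs and 3907, 4238 and 3933 CPM in ECs. In lung the values were 9004, 11512 and 10514 CPM in fibroblasts, 1189, 1082 and 681 CPM in iECs and 357, 374 and 558 CPM in ECs. No iEC or EC library reached the lowest fibroblast library of its organ. The log2 change of iECs was -1.85 ± 0.18 (edgeR adjusted p = 3.0e-07) in heart and -3.39 ± 0.20 (edgeR adjusted p = 4.1e-10) in lung, a fold of 3.61 and 10.5. For ECs it was -1.14 ± 0.18 (edgeR adjusted p = 7.8e-05) in heart and -4.59 ± 0.21 (edgeR adjusted p = 1.2e-11) in lung, and without lung iEC replicate 3 the lung iEC value was -3.19. The fibroblast markers fell with Col3a1: 8 of 9 were lower in heart iECs, 9 of 9 in lung iECs and 7 of 9 in ECs of either organ, and their part in its change was not tested.

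Because Col3a1 had the largest change among the chains above 1000 CPM, the 250 bases before its start are shown, from RefSeq on GRCm38.p6 at chr1:45311288-45311537, plus strand, with no annotated exon inside. The capitals mark a TATAAA motif, searched on both strands.
Col3a1 upstream: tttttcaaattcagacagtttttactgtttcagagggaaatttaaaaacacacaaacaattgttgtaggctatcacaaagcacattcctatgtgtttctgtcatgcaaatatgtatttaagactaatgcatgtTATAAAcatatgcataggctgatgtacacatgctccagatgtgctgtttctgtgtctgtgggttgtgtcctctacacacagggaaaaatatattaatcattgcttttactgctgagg
TATAAA was found in 13.6% of the 32851 RefSeq windows that hold 250 bases before and 50 after a gene's start, and in 5 of the 38 windows of 35 collagen genes (13.2%). The motif CCAAT was found in 37.4% of all windows and 13 of the 38 (34.2%), and GGGCGG in 35.7% of all and 23 of the 38 (60.5%). No window was in the table for Col1a1, Col2a1, Col4a3, Col5a2, Col9a3, Col12a1, Col14a1, Col22a1 or Col26a1.

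Type I collagen, the main fibril of connective tissue, is made of Col1a1 and Col1a2 chains. In heart Col1a1 measured 8002, 8932 and 8617 CPM in fibroblasts, 8711, 9195 and 8653 CPM in iECs and 8468, 8266 and 8123 CPM in ECs, ranges that overlapped between fibroblasts and each of the others. In lung it stood at 12813, 15361 and 15320 CPM in fibroblasts, 7002, 6515 and 5206 CPM in iECs and 2359, 2668 and 3201 CPM in ECs, with no overlap. The log2 change of Col1a1 was -1.22 ± 0.11 (edgeR adjusted p = 6.3e-08) in lung iECs and -2.40 ± 0.12 (edgeR adjusted p = 6.1e-12) in lung ECs, while the heart values, 0.06 ± 0.11 (edgeR adjusted p = 0.71) and -0.04 ± 0.11 (edgeR adjusted p = 0.8), did not pass. Col1a2 measured 7553, 8024 and 7854 CPM in heart fibroblasts, 6073, 6670 and 6196 CPM in heart iECs and 5387, 5166 and 5048 CPM in heart ECs. Lung values of Col1a2 were 11783, 14031 and 13452 CPM in fibroblasts, 6219, 5737 and 4718 CPM in iECs and 2038, 2264 and 2530 CPM in ECs, again apart. Its changes were -1.24 ± 0.10 (edgeR adjusted p = 9.3e-09) in lung iECs, -2.52 ± 0.10 (edgeR adjusted p = 6.2e-13) in lung ECs and -0.59 ± 0.10 (edgeR adjusted p = 1.0e-04) in heart ECs. The smaller value in heart iECs, -0.31 ± 0.10 (edgeR adjusted p = 0.015), lost its call without heart FB replicate 2, or heart iEC replicate 1 (log2 change -0.29 and -0.28).

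Type V chains take part in starting type I fibrils. Col5a1 measured 1225, 1431 and 1295 CPM in heart fibroblasts and 1083, 1171 and 1134 CPM in heart ECs, below the 1914, 1941 and 1817 CPM of heart iECs. The lung values were 1049, 1205 and 1280 CPM in fibroblasts, 1075, 1060 and 857 CPM in iECs and 452, 462 and 559 CPM in ECs. It rose in heart iECs by 0.52 ± 0.10 (edgeR adjusted p = 3.2e-04) on the log2 scale and was lower in lung ECs, at -1.26 ± 0.10 (edgeR adjusted p = 7.3e-09). Lung iECs overlapped lung fibroblasts at -0.24 ± 0.10 (edgeR adjusted p = 0.058). In heart Col5a2 passed in neither comparison, with 2870, 3037 and 2988 CPM in fibroblasts, 2906, 3159 and 2832 CPM in iECs and 2788, 2754 and 2739 CPM in ECs. In lung it fell from 3772, 4459 and 4380 CPM in fibroblasts to 2072, 1912 and 1594 CPM in iECs and 1679, 1710 and 1884 CPM in ECs, with log2 changes of -1.18 ± 0.09 (edgeR adjusted p = 5.1e-09) and -1.26 ± 0.09 (edgeR adjusted p = 1.5e-09). Col5a3 was the one abundant fibrillar chain to rise in all 4 comparisons.

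Col5a3 measured 48.7, 54.2 and 51.4 CPM in heart fibroblasts, 109, 102 and 96.96 CPM in heart iECs and 69.2, 89.99 and 78.7 CPM in heart ECs. Lung fibroblasts held 10.2, 9.97 and 8.53 CPM, against 56.6, 49.2 and 66.6 CPM in lung iECs and 31.3, 45.6 and 25.1 CPM in lung ECs. No groups compared within an organ overlapped. The change in iECs was 0.99 ± 0.16 (edgeR adjusted p = 8.3e-05) in heart and 2.59 ± 0.18 (edgeR adjusted p = 4.1e-09) in lung, and in ECs 0.62 ± 0.16 (edgeR adjusted p = 0.0053) and 1.83 ± 0.18 (edgeR adjusted p = 2.0e-07). Col11a1, a chain of type XI collagen best known from cartilage, measured 411, 475 and 419.8 CPM in heart fibroblasts, 585, 601 and 573 CPM in heart iECs and 544, 682 and 626 CPM in heart ECs. Lung libraries measured 576, 744 and 756 CPM in fibroblasts, 367, 361 and 237 CPM in iECs and 549, 497 and 706 CPM in ECs. Lung iECs held less of it than fibroblasts, at -1.11 ± 0.16 (edgeR adjusted p = 1.8e-05) (-0.93 without lung iEC replicate 3), and overlapped between lung ECs and fibroblasts, at -0.24 ± 0.16 (edgeR adjusted p = 0.19). The heart changes were 0.43 ± 0.16 (edgeR adjusted p = 0.031) in iECs and 0.50 ± 0.16 (edgeR adjusted p = 0.014) in ECs. The iEC call of Col11a1 was lost without heart FB replicate 1 or 3, or heart iEC replicate 1, 2 or 3 (log2 change 0.39, 0.40, 0.43, 0.41 and 0.45), and the EC call without heart EC replicate 2, or heart FB replicate 1 (log2 change 0.43 and 0.47).

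**Figure D4:**
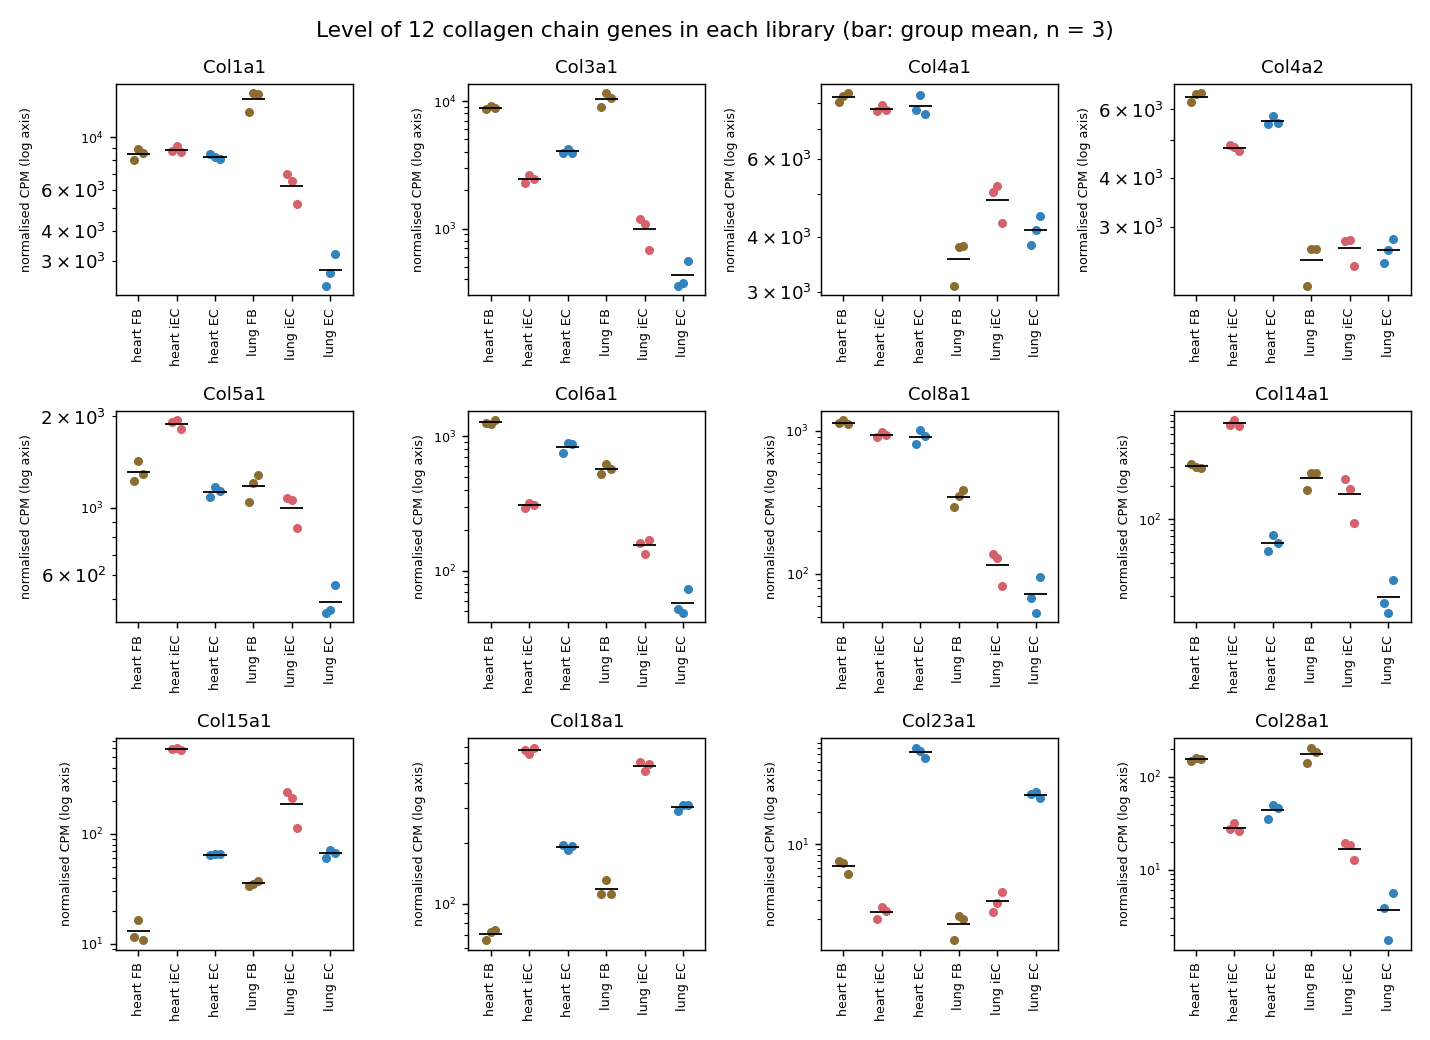
Normalised CPM (log axis) of 12 collagen chain genes in each of the 18 libraries (points, by group) with group means (bars, n = 3). Col15a1 lies between 582 and 609 CPM in heart iECs and at 16.6 CPM or less in heart fibroblasts, Col23a1 is high in ECs of both organs, and Col28a1 is high in fibroblasts of both organs.

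The basement membrane chains lie in pairs, head to head in the genome, and did not all change alike, even within a pair. Of 6 tested chains, heart iECs had none above and 5 below the fibroblast level (all genes 26% and 24.6%), and lung iECs 1 above and 1 below (25.9% and 24.7%). In ECs 1 was higher in heart (24.2%), and 3 were higher and 2 lower in lung (29.3% and 28.7%). Col4a1 and Col4a2, which together form the type IV network found in nearly all tissues, were the most abundant of them. Col4a1 measured 8039, 8303 and 8424 CPM in heart fibroblasts, 7670, 7920 and 7704 CPM in heart iECs and 7703, 8338 and 7557 CPM in heart ECs. The lung groups held 3106, 3785 and 3804 CPM in fibroblasts, 5053, 5206 and 4299 CPM in iECs and 3824, 4151 and 4462 CPM in ECs. Lung iECs held more of it than fibroblasts, at 0.44 ± 0.09 (edgeR adjusted p = 4.4e-04), with no overlap. The heart changes of Col4a1, -0.09 ± 0.09 (edgeR adjusted p = 0.44) in iECs and -0.07 ± 0.09 (edgeR adjusted p = 0.55) in ECs, did not pass. In lung ECs the value of 0.22 ± 0.09 (edgeR adjusted p = 0.046) lost its call without lung EC replicate 2 or 3, or lung FB replicate 1 (log2 change 0.22, 0.16 and 0.13).

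Col4a2 measured 6261, 6557 and 6602 CPM in heart fibroblasts, 4860, 4809 and 4695 CPM in heart iECs and 5517, 5765 and 5548 CPM in heart ECs, with a log2 change in iECs of -0.44 ± 0.09 (edgeR adjusted p = 3.6e-04). Its value in heart ECs, -0.21 ± 0.09 (edgeR adjusted p = 0.057), did not pass although those libraries all lay below the fibroblasts. In lung, 2122, 2638 and 2627 CPM in fibroblasts, 2768, 2784 and 2388 CPM in iECs and 2429, 2624 and 2788 CPM in ECs overlapped. The first exons of Col4a1 and Col4a2 lie on opposite strands of chromosome 8 and share 22 bases in the GENCODE annotation. They are shown because the 2 chains form 1 protein and start from this point, with a GGGCGG motif in capitals, on the Col4a2 strand at chr8:11312805-11312826 (GRCm38).
Col4a1 and Col4a2 overlap: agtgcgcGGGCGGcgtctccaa

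Col4a3 and Col4a4 code for the chains of a thicker basement membrane network, known from the kidney glomerulus and the lung alveolus. Both were scarce, and both were lower in iECs than in ECs of either organ. Col4a3 measured 4.49, 5.37 and 3.99 CPM in heart fibroblasts, 1.24, 0.751 and 0.518 CPM in heart iECs and 10.04, 13.9 and 10.3 CPM in heart ECs. Lung values were 0.344, 0.91 and 0.948 CPM in fibroblasts, 0.427, 0.645 and 0.579 CPM in iECs and 13.3, 11.5 and 14.6 CPM in ECs, and the ECs lay above all other lung libraries. The change in ECs was 1.30 ± 0.24 (edgeR adjusted p = 2.4e-04) in heart and 4.12 ± 0.29 (edgeR adjusted p = 1.0e-09) in lung, a fold of 17.4 in lung. Heart iECs, in contrast, were lower than fibroblasts at -2.46 ± 0.29 (edgeR adjusted p = 1.1e-06), and at under 2 CPM in lung iECs and fibroblasts the difference was -0.44 ± 0.38 (edgeR adjusted p = 0.35).

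Col4a4 stood at 13.7, 13.7 and 12.3 CPM in heart fibroblasts, 1.64, 1.63 and 1.51 CPM in heart iECs and 14.6, 21.03 and 17.4 CPM in heart ECs. Lung values were 0.745, 2.25 and 1.94 CPM in fibroblasts, 0.901, 0.602 and 0.482 CPM in iECs and 5.84, 4.81 and 8.34 CPM in ECs. Its change was -3.05 ± 0.28 (edgeR adjusted p = 3.5e-08) in heart iECs, the largest fall of any chain in that comparison among those with at least 10 CPM. In lung, where no group mean of Col4a4 exceeded 6.33 CPM, it was 1.91 ± 0.28 (edgeR adjusted p = 1.2e-05) in ECs and -1.33 ± 0.35 (edgeR adjusted p = 0.0042) in iECs, the latter overlapping the fibroblasts. Within each organ, epithelial markers were highest in ECs and lowest in iECs. Their 6 genes summed to 250 to 290 CPM in lung ECs, and 5 of 5 tested were higher there than in fibroblasts. The sum was 12.6 to 19.6 CPM in lung fibroblasts and 3.60 to 4.64 CPM in lung iECs. In heart the epithelial markers summed to 12.05 to 22.8 CPM in ECs, 1.16 to 1.75 CPM in fibroblasts and under 0.251 CPM in iECs. Epcam, Cldn4 and Sftpc had no count in the heart ECs. Between organs the order differed: heart fibroblasts held more Col4a4 than lung ECs and less of the epithelial markers. The 5 mesothelial markers summed to 353 to 517 CPM in heart ECs, 49.6 to 67.6 CPM in heart fibroblasts and 2.21 to 2.55 CPM in heart iECs. In lung the mesothelial markers of ECs (181 to 294 CPM) overlapped those of fibroblasts (261 to 275 CPM), unlike Col4a3 and Col4a4. They were at 14.4 to 21.1 CPM in lung iECs. Their part in the Col4a3 and Col4a4 values was not tested.

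The 71 bases between the starts of Col4a4 and Col4a3, which lie head to head on chromosome 1, are shown because the chains of this pair were both lower in iECs than in ECs of either organ. The run is chr1:82586850-82586920 of GRCm38, minus strand, read toward Col4a4, 69% G or C, and none of the 3 motifs was found in it.
Col4a4 to Col4a3 gap: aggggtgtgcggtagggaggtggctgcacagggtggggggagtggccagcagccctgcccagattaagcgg
Col4a6 and Col4a5, on the X chromosome, are another pair of this kind, with 1308 bases between their starts.

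Col4a5 measured 547, 558 and 523 CPM in heart fibroblasts, 343, 334 and 339.8 CPM in heart iECs and 445, 518 and 459 CPM in heart ECs. For lung the values were 232, 336 and 325 CPM in fibroblasts, 231, 274 and 227 CPM in iECs and 135, 124 and 208 CPM in ECs. Its change was -0.68 ± 0.16 (edgeR adjusted p = 0.002) in heart iECs and -0.94 ± 0.16 (edgeR adjusted p = 1.0e-04) in lung ECs, each without overlap, and the other 2 comparisons with fibroblasts did not pass. Col4a6 measured 48.1, 55.1 and 51.2 CPM in heart fibroblasts against 15.5, 14.3 and 14.98 CPM in heart iECs and 39.8, 46.1 and 37.5 CPM in heart ECs. The lung values were 29.9, 45.3 and 43.9 CPM in fibroblasts, 30.97, 34.5 and 31.9 CPM in iECs and 14.8, 15.5 and 24.5 CPM in ECs. It was lower in the same comparisons, at -1.78 ± 0.17 (edgeR adjusted p = 1.4e-07) in heart iECs and -1.12 ± 0.17 (edgeR adjusted p = 2.2e-05) in lung ECs.

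Type VI chains, which build beaded filaments beside basement membranes, numbered 4 among the tested genes. Of these, 1 was higher and 2 lower in heart iECs, 1 higher and 3 lower in lung iECs, 3 lower in heart ECs and 1 higher and 3 lower in lung ECs. The share of all genes that was lower in these comparisons was 24.6%, 24.7%, 23.3% and 28.7%. The chain that rose was Col6a4, whose group means stayed at or below 1.66 CPM, and which is named here after its values were seen. Col6a1 measured 1260, 1238 and 1307 CPM in heart fibroblasts, 294, 318 and 309 CPM in heart iECs and 753, 883 and 869.6 CPM in heart ECs. The values in lung were 522, 623 and 567 CPM in fibroblasts, 160.1, 133 and 169.6 CPM in iECs and 52.1, 48.8 and 73.3 CPM in ECs. All 3 groups of each organ were apart. The changes of Col6a1 were -2.05 ± 0.13 (edgeR adjusted p = 2.5e-10) in heart iECs and -1.89 ± 0.13 (edgeR adjusted p = 8.0e-10) in lung iECs, -0.60 ± 0.12 (edgeR adjusted p = 6.4e-04) in heart ECs and -3.30 ± 0.14 (edgeR adjusted p = 5.6e-13) in lung ECs.

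Its partner Col6a2 measured 484, 514 and 535 CPM in heart fibroblasts, 134, 153 and 146 CPM in heart iECs and 336, 379.7 and 388 CPM in heart ECs. Lung values were 238, 270.2 and 253 CPM in fibroblasts, 39.1, 36.7 and 28.3 CPM in iECs and 21.4, 18.6 and 29.5 CPM in ECs, the last 2 of which overlapped. It changed by -1.82 ± 0.14 (edgeR adjusted p = 3.7e-09) in heart iECs, -2.87 ± 0.14 (edgeR adjusted p = 1.8e-11) in lung iECs, -0.47 ± 0.13 (edgeR adjusted p = 0.007) in heart ECs and -3.45 ± 0.15 (edgeR adjusted p = 1.5e-12) in lung ECs. The third chain, Col6a3, did not show the same fall in heart iECs. It measured 316, 337 and 312 CPM in heart fibroblasts, 234, 242 and 228 CPM in heart iECs and 160.3, 198 and 200.4 CPM in heart ECs. Among lung libraries, the level was 124, 175 and 170.3 CPM in fibroblasts, 135, 101 and 54.96 CPM in iECs and 24.96, 17.04 and 33.97 CPM in ECs. The value of -0.46 ± 0.27 (edgeR adjusted p = 0.18) in heart iECs did not pass, and that of -0.70 ± 0.27 (edgeR adjusted p = 0.048) in lung iECs lost its call without lung FB replicate 2 or 3, or lung iEC replicate 2 or 3 (log2 change -0.61, -0.63, -0.72 and -0.41). In ECs the change was -0.79 ± 0.27 (edgeR adjusted p = 0.028) in heart, a call lost without heart EC replicate 1, 2 or 3, or heart FB replicate 1, 2 or 3 (log2 change -0.69, -0.83, -0.84, -0.80, -0.75 and -0.81), and -2.63 ± 0.29 (edgeR adjusted p = 2.9e-06) in lung.

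Col8a1, a short chain of the network made by endothelium and vessel walls, measured 1123, 1176 and 1111 CPM in heart fibroblasts, 901, 978 and 924 CPM in heart iECs and 808, 1001 and 913 CPM in heart ECs. The heart values of Col8a1, -0.28 ± 0.19 (edgeR adjusted p = 0.23) and -0.33 ± 0.19 (edgeR adjusted p = 0.17), did not pass, though no iEC or EC library reached the fibroblasts. Lung fibroblasts held 295, 348 and 383 CPM, lung iECs 137, 129 and 82.2 CPM and lung ECs 68.2, 53.6 and 95.8 CPM. The fall was -1.56 ± 0.19 (edgeR adjusted p = 5.7e-06) in lung iECs and -2.24 ± 0.20 (edgeR adjusted p = 8.8e-08) in lung ECs, and fibroblasts overlapped with neither. Its partner chain Col8a2 never exceeded 1.63 CPM in a library.

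Among the FACIT chains, which decorate fibril surfaces, 3 were abundant and each had its own pattern. Of 7 tested, 3 were higher and 1 lower in heart iECs, 2 lower in lung iECs, 2 higher and 2 lower in heart ECs and 1 higher and 3 lower in lung ECs, beside 50.7%, 50.6%, 47.4% and 58.1% of all genes called in either direction. Col12a1 measured 151, 171 and 145 CPM in heart fibroblasts, 456, 429 and 428 CPM in heart iECs and 361, 475 and 434 CPM in heart ECs. Lung libraries measured 451, 763 and 762 CPM in fibroblasts, 388, 387 and 258 CPM in iECs and 580.4, 549 and 683 CPM in ECs. It rose in heart iECs (1.49 ± 0.19, edgeR adjusted p = 6.4e-06) and heart ECs (1.44 ± 0.19, 1.4e-05). Lung iECs lay below lung fibroblasts at -0.94 ± 0.19 (edgeR adjusted p = 5.5e-04), or -0.77 without lung iEC replicate 3, and lung ECs overlapped them at -0.12 ± 0.18 (edgeR adjusted p = 0.59).

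Col14a1, found on fibrils of mature connective tissue, separated iECs from ECs. It measured 319, 301 and 298 CPM in heart fibroblasts, 736, 803 and 721 CPM in heart iECs and 51.6, 72.5 and 60.2 CPM in heart ECs. The lung groups held 186, 264 and 265 CPM in fibroblasts, 233, 189 and 91.96 CPM in iECs and 17.1, 14.02 and 27.8 CPM in ECs, and every iEC library of an organ exceeded every EC library. It was higher in heart iECs than in fibroblasts, at 1.30 ± 0.29 (edgeR adjusted p = 0.0021), and lower in ECs, at -2.32 ± 0.31 (edgeR adjusted p = 3.0e-05) in heart and -3.60 ± 0.33 (edgeR adjusted p = 4.0e-07) in lung. Lung iECs overlapped lung fibroblasts, at -0.48 ± 0.29 (edgeR adjusted p = 0.19). Col16a1 was lower in all 4 comparisons. It measured 279.7, 289 and 281 CPM in heart fibroblasts, 94.9, 93.2 and 91.01 CPM in heart iECs and 127, 139.6 and 126 CPM in heart ECs. Lung values were 199.7, 193 and 194 CPM in fibroblasts, 56.01, 51.7 and 50.2 CPM in iECs and 34.5, 39.1 and 48.02 CPM in ECs, and no groups of an organ overlapped. Its changes were -1.61 ± 0.09 (edgeR adjusted p = 4.8e-11) and -1.89 ± 0.09 (edgeR adjusted p = 7.2e-12) in heart and lung iECs and -1.11 ± 0.09 (edgeR adjusted p = 1.3e-08) and -2.27 ± 0.09 (edgeR adjusted p = 4.6e-13) in heart and lung ECs.

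Both multiplexins were higher in iECs and ECs than in fibroblasts of either organ, and higher in iECs than in ECs. Col15a1 codes for type XV collagen, a proteoglycan at the outer face of vascular and muscle basement membranes. It measured 11.6, 16.6 and 10.9 CPM in heart fibroblasts, 597, 609 and 582 CPM in heart iECs and 63.9, 65.3 and 65.2 CPM in heart ECs. For lung the values were 33.9, 35.1 and 37.4 CPM in fibroblasts, 239, 212 and 112 CPM in iECs and 60.3, 72.04 and 67.8 CPM in ECs. No groups of an organ overlapped. The change in heart iECs, 5.51 ± 0.25 (edgeR adjusted p = 5.4e-11), was a fold of 45.6, the largest rise against fibroblasts among the 24 chains of at least 10 CPM. Lung iECs changed by 2.41 ± 0.21 (edgeR adjusted p = 1.7e-07), a fold of 5.30, and by 2.67 without replicate 3. The ECs changed by 2.31 ± 0.22 (edgeR adjusted p = 6.3e-07) in heart and 0.91 ± 0.21 (edgeR adjusted p = 0.0014) in lung.

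Col18a1 codes for type XVIII collagen, whose cleaved end is endostatin. It measured 65.9, 72.5 and 73.4 CPM in heart fibroblasts, 584, 556 and 598 CPM in heart iECs and 196, 184 and 193 CPM in heart ECs. The values in lung were 112, 131 and 112 CPM in fibroblasts, 507, 458 and 495 CPM in iECs and 290.1, 310.4 and 311 CPM in ECs, so that the order fibroblast, EC, iEC held in both organs without overlap. The iEC change was 3.04 ± 0.08 (edgeR adjusted p = 2.1e-15) in heart and 2.04 ± 0.08 (edgeR adjusted p = 2.8e-13) in lung, and that of ECs 1.43 ± 0.08 (edgeR adjusted p = 6.9e-11) and 1.36 ± 0.08 (edgeR adjusted p = 3.0e-11). Smooth muscle and pericyte markers moved with these chains in iECs. Their 7 genes summed to 1154 to 1343 CPM in heart iECs against 212 to 243 CPM in heart fibroblasts and 301 to 416 CPM in heart ECs. In lung they summed to 3171 to 3865 CPM in iECs, 834 to 1151 CPM in fibroblasts and 1315 to 2043 CPM in ECs. Schwann markers summed to 12.2 to 21.5 CPM in heart iECs and 51.4 to 56.8 CPM in lung iECs, and at most 1.22 CPM in fibroblasts, with Sox10 without a count in iECs of either organ. The part of either list in the multiplexin values was not tested.

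The 250 bases before the start of Col15a1, which had that rise, are shown from RefSeq on GRCm38.p6 at chr4:47207762-47208011, plus strand, with no annotated exon inside and 53.6% G or C. None of the 3 motifs was found in them, and nothing is in capitals.
Col15a1 upstream: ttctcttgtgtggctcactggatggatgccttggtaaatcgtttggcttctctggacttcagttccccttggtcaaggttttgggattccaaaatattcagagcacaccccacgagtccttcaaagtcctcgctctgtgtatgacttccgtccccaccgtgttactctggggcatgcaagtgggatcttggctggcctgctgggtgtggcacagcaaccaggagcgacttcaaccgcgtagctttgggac

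Of the other chains, Col23a1 and Col28a1 changed in opposite directions in ECs. Col23a1 codes for a membrane-bound collagen. It measured 6.89, 6.69 and 5.26 CPM in heart fibroblasts, 1.997, 2.59 and 2.37 CPM in heart iECs and 81.2, 75.8 and 65.3 CPM in heart ECs. Among lung libraries, the level was 1.26, 2.11 and 1.99 CPM in fibroblasts, 2.32, 2.79 and 3.57 CPM in iECs and 29.9, 30.99 and 27.01 CPM in ECs. Every EC library exceeded every fibroblast and iEC library of its organ, with changes against fibroblasts of 3.56 ± 0.15 (edgeR adjusted p = 6.7e-12) in heart and 4.01 ± 0.17 (edgeR adjusted p = 1.1e-12) in lung. In heart iECs it was lower than in fibroblasts, at -1.44 ± 0.18 (edgeR adjusted p = 1.8e-06), and in lung iECs higher, at 0.68 ± 0.20 (edgeR adjusted p = 0.0086). Epithelial markers, given above beside Col4a4, were highest in the ECs of each organ. Of the 5 mesothelial markers, 5 were higher in heart ECs and 4 lower in lung ECs than in fibroblasts, and the part of both lists in the Col23a1 values was not tested. Col28a1, a chain related to type VI collagen, was high in fibroblasts. It measured 148, 157 and 156 CPM in heart fibroblasts, 27.3, 31.5 and 25.9 CPM in heart iECs and 34.7, 50.02 and 46.1 CPM in heart ECs. Lung libraries measured 141, 205 and 182 CPM in fibroblasts, 19.4, 18.2 and 12.6 CPM in iECs and 3.84, 1.75 and 5.54 CPM in ECs. The falls were -2.44 ± 0.26 (edgeR adjusted p = 1.5e-06) and -3.40 ± 0.27 (edgeR adjusted p = 8.0e-08) in iECs and -1.82 ± 0.25 (edgeR adjusted p = 3.4e-05) and -5.57 ± 0.31 (edgeR adjusted p = 1.1e-09) in ECs, the last a fold of 47.5. The fibroblast markers given beside Col3a1 moved with Col28a1 too, and their part in it was not tested.

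The remaining chains were scarce. The 11 tested chains without a group mean of 10 CPM reached at most 9.85 CPM, the level of Col27a1 in heart iECs. Col27a1, a fibrillar chain, was higher in heart iECs (2.34 ± 0.23), lung iECs (1.81 ± 0.22) and lung ECs (1.69 ± 0.22) than in fibroblasts, each at an edgeR adjusted p under 0.05, and is named after its values were seen. The 11 were Col2a1, Col6a4, Col7a1, Col8a2, Col9a2, Col9a3, Col11a2, Col20a1, Col22a1, Col24a1 and Col27a1. Col2a1, the main chain of cartilage, measured 2.86 CPM in lung fibroblast replicate 1 and 0 and 0.0451 CPM in the other 2, and is given as values alone. The 9 untested chains were Col6a5, Col6a6, Col9a1, Col10a1, Col13a1, Col17a1, Col19a1, Col25a1 and Col26a1, with no library above 0.824 CPM. Col9a1 had no count in any lung group and 2, 16 and 31 counts in heart fibroblasts, iECs and ECs. Col26a1 had no count in heart fibroblasts, heart ECs or lung fibroblasts. It had 35 counts in heart iECs, 10 in lung iECs and 12 in lung ECs. Col9a1 and Col26a1 are named after their values were seen. A group without a count allows up to 3 counts over its libraries, or 0.0431 to 0.0549 CPM by group. Such a limit covers counting error alone, because reads that carry no molecular identifier may be copies of 1 molecule.

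Several ratios between chains differed between groups without overlap. Ratios of counts within a library do not depend on library size. The exact permutation test over 3 and 3 libraries (2-sided) cannot go below 0.1, and over the 63 comparisons made no ratio passed, the smallest adjusted p being 0.117. Each ratio below is of counts, not per length. Col3a1 to Col1a1 was 1.08, 1.02 and 1.02 in heart fibroblasts, 0.26, 0.29 and 0.28 in heart iECs and 0.46, 0.51 and 0.48 in heart ECs. In lung it was 0.70, 0.75 and 0.69 in fibroblasts, 0.17, 0.17 and 0.13 in iECs and 0.15, 0.14 and 0.17 in ECs, so that fibroblasts lay above both other groups of their organ. Col1a1 to Col1a2 was 1.06, 1.11 and 1.10 in heart fibroblasts, 1.43, 1.38 and 1.40 in heart iECs and 1.57, 1.60 and 1.61 in heart ECs, a log2 difference of 0.36 for iECs and 0.55 for ECs. In lung it was 1.09, 1.09 and 1.14 in fibroblasts, 1.13, 1.14 and 1.10 in iECs and 1.16, 1.18 and 1.27 in ECs.

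The Col4a1 to Col4a2 ratio was compared because both chains enter 1 protein. It was 1.28, 1.27 and 1.28 in heart fibroblasts, 1.58, 1.65 and 1.64 in heart iECs and 1.40, 1.45 and 1.36 in heart ECs. In lung it was 1.46, 1.44 and 1.45 in fibroblasts, 1.83, 1.87 and 1.80 in iECs and 1.57, 1.58 and 1.60 in ECs, so that every iEC library exceeded every other library of its organ. Col5a1 to Col5a2 was also higher in each iEC library than in each fibroblast library, with 0.66, 0.61 and 0.64 in heart iECs against 0.43, 0.47 and 0.43 in heart fibroblasts, and 0.52, 0.55 and 0.54 in lung iECs against 0.28, 0.27 and 0.29 in lung fibroblasts. Col6a3 to Col6a1 was 0.79, 0.76 and 0.74 in heart iECs against 0.25, 0.27 and 0.24 in heart fibroblasts. In lung iECs it was 0.84, 0.76 and 0.32, with replicate 3 far below the other 2, against 0.24, 0.28 and 0.30 in fibroblasts. Col6a1 to Col6a2 was 4.09, 3.61 and 5.99 in lung iECs and between 2.08 and 2.63 in all other libraries. Col18a1 to Col15a1 was near 1 in heart iECs (0.98, 0.91 and 1.03) and 5.66, 4.37 and 6.74 in heart fibroblasts, while in lung iECs (2.12, 2.16 and 4.41) replicate 3 again stood apart and the group overlapped lung fibroblasts (3.30, 3.73 and 3.0).

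**Figure D5:**
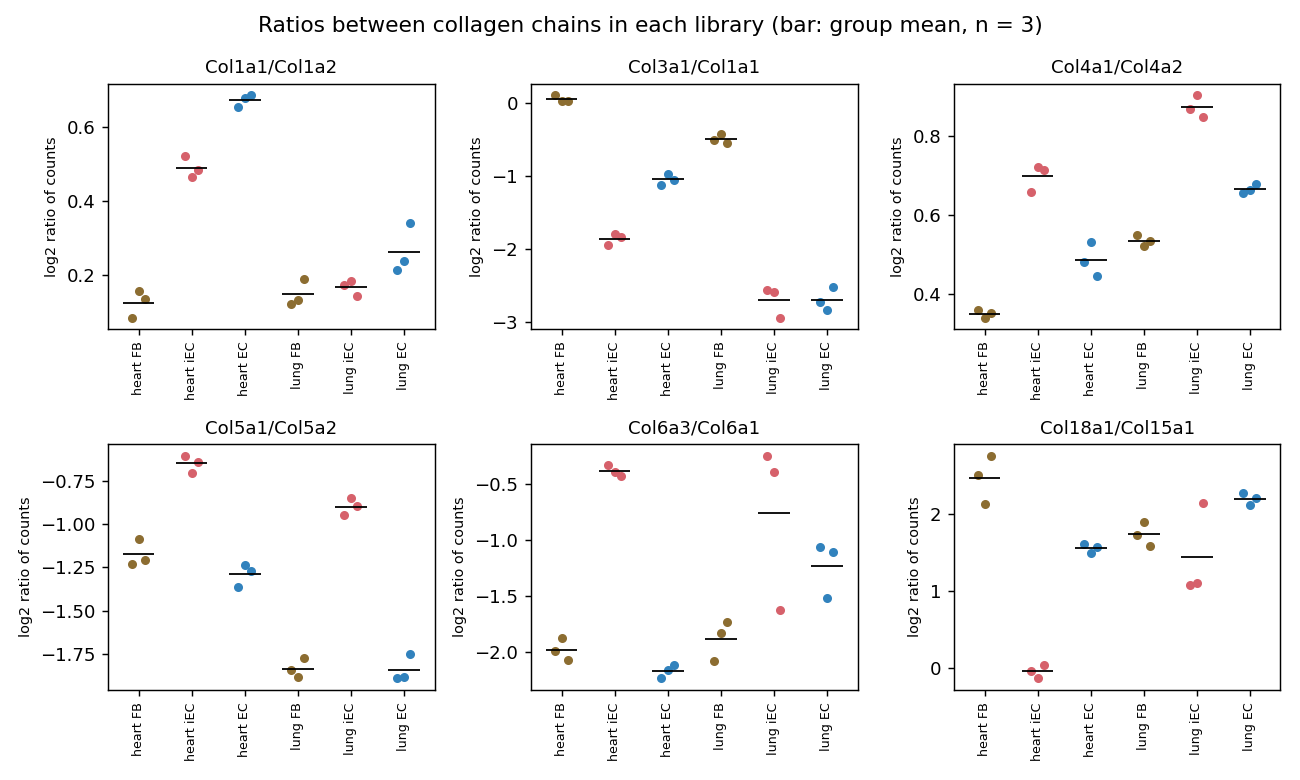
Log2 ratio of counts of 6 pairs of collagen chains in each library (points) with group means (bars, n = 3), by group. Col4a1 over Col4a2 is highest in the iECs of each organ, Col3a1 over Col1a1 is highest in the fibroblasts, and lung iEC replicate 3 lies away from its group for Col6a3 over Col6a1 and Col18a1 over Col15a1.

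Against native ECs, iECs of both organs held more Col14a1, Col15a1 and Col18a1 and less Col4a3, Col4a4 and Col23a1. In heart, 8 of 35 chains were higher and 11 lower in iECs, against 24.5% and 24.4% of all genes (48.9% in either direction), with a median log2 difference of -0.07. In lung, 18 were higher and 6 lower, against 22.2% and 23% of all genes (45.2% in either direction), with a median of 0.68. Among chains of at least 10 CPM in 1 of the groups, the largest rises in heart were those of Col14a1 at 3.62 ± 0.32 (edgeR adjusted p = 5.1e-07), Col15a1 at 3.20 ± 0.22 (edgeR adjusted p = 9.7e-09) and Col18a1 at 1.60 ± 0.08 (edgeR adjusted p = 6.9e-12). The largest falls were those of Col23a1 at -4.99 ± 0.17 (edgeR adjusted p = 1.3e-13), Col4a3 at -3.77 ± 0.28 (edgeR adjusted p = 4.2e-09) and Col4a4 at -3.47 ± 0.28 (edgeR adjusted p = 8.8e-09). Col5a1 was also higher (0.74 ± 0.10), and Col6a1 (-1.44 ± 0.13), Col6a2 (-1.35 ± 0.13), Col4a6 (-1.46 ± 0.17), Col3a1 (-0.72 ± 0.18) and Col16a1 (-0.49 ± 0.09) were lower, each at an edgeR adjusted p under 0.05. The smaller differences of Col1a2 (0.28), Col4a2 (-0.23) and Col4a5 (-0.49) lost their calls when 1 library was left out: Col1a2 without heart EC replicate 2 or 3, or heart iEC replicate 2 (log2 change 0.28, 0.25 and 0.24), Col4a2 without heart EC replicate 1, 2 or 3, or heart iEC replicate 1, 2 or 3 (log2 change -0.24, -0.21, -0.25, -0.24, -0.23 and -0.21) and Col4a5 without heart EC replicate 2, or heart iEC replicate 2 (log2 change -0.42 and -0.47). The fibroblast markers summed to 995 to 1108 CPM in heart iECs against 3288 to 3568 CPM in heart ECs, and the mesothelial markers to 2.21 to 2.55 CPM against 353 to 517 CPM, and their part in the heart differences was not tested. In lung the largest rises were those of Col14a1 at 3.12 ± 0.32 (edgeR adjusted p = 2.7e-06), Col28a1 at 2.17 ± 0.30 (edgeR adjusted p = 3.2e-05) and Col6a3 at 1.93 ± 0.29 (edgeR adjusted p = 8.0e-05). The largest falls were those of Col4a3 at -4.56 ± 0.30 (edgeR adjusted p = 8.0e-10), Col23a1 at -3.34 ± 0.16 (edgeR adjusted p = 1.1e-11) and Col11a1 at -0.86 ± 0.16 (edgeR adjusted p = 2.7e-04).

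Most of the abundant lung chains were higher in iECs than in ECs. Col15a1 (1.49 ± 0.20), Col6a1 (1.41 ± 0.13), Col1a2 (1.29 ± 0.10), Col3a1 (1.20 ± 0.18), Col1a1 (1.19 ± 0.11), Col5a1 (1.02 ± 0.10), Col4a6 (0.83 ± 0.17), Col5a3 (0.76 ± 0.17), Col18a1 (0.68 ± 0.07) and Col16a1 (0.38 ± 0.09) were higher and Col12a1 (-0.81 ± 0.19) lower, each at an edgeR adjusted p under 0.05. Of the rest, Col4a1 (0.23) lost its call without lung EC replicate 1 or 2, or lung iEC replicate 1 or 2 (log2 change 0.17, 0.23, 0.20 and 0.17). Col4a5 (0.65 ± 0.16) was higher as well, and so were Col6a2 (0.58 ± 0.14) and Col8a1 (0.68 ± 0.19), whose groups overlapped. Fitted with only the 2 groups compared, these 3 lost their calls, at edgeR adjusted p = 0.052 for Col4a5, 0.0545 for Col6a2 and 0.115 for Col8a1. Macrophage markers summed to 6987 to 9309 CPM in lung ECs and 2106 to 3522 CPM in lung iECs. Smooth muscle and pericyte markers stood at 1315 to 2043 CPM in lung ECs and 3171 to 3865 CPM in lung iECs. Epithelial markers stood at 250 to 290 CPM and 3.60 to 4.64 CPM, and mesothelial markers at 181 to 294 CPM and 14.4 to 21.1 CPM. Fibroblast markers, at 733 to 1218 CPM and 717 to 816 CPM, overlapped. The part of these lists in the lung differences was not tested. Without lung iEC replicate 3, 17 chains were higher and 6 lower.

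Between organs, most collagen chains were lower in lung iECs and ECs than in their heart counterparts. In iECs 2 of 35 were higher and 20 lower in lung, against 18.9% and 18.9% of all genes (37.7% in either direction), with a median of -0.67. In ECs 3 were higher and 19 lower, against 24.2% and 23.7% (47.9%), with a median of -1.17. Fibroblasts had 7 higher and 13 lower in lung, against 24.6% and 23.9% (48.5%), with a median of 0.03. Without lung iEC replicate 3, lung iECs had 2 chains above and 18 below the heart level. Macrophage markers moved with this comparison too, at 180 to 329 CPM in heart libraries against 2106 to 3522 CPM in lung iECs and 6987 to 9309 CPM in lung ECs. Fibroblast markers moved with the lower collagen values of lung ECs, at 733 to 1218 CPM against 3288 to 3568 CPM in heart ECs, and stood at 717 to 816 CPM in lung iECs against 995 to 1108 CPM in heart iECs. The part of both lists was not tested. The values below are log2 differences ± SE, lung against heart, for chains of at least 10 CPM in 1 of the groups, and each passed at an edgeR adjusted p under 0.05 unless its p is given.

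In fibroblasts the organs differed most in Col12a1 (2.08 ± 0.19, edgeR adjusted p = 2.2e-07), Col15a1 (1.44 ± 0.22, edgeR adjusted p = 5.9e-05) and Col1a1 (0.77 ± 0.11, edgeR adjusted p = 1.8e-05), higher in lung, and in Col4a4 (-2.98 ± 0.28, edgeR adjusted p = 6.8e-08), Col5a3 (-2.43 ± 0.18, edgeR adjusted p = 1.1e-08) and Col8a1 (-1.73 ± 0.19, edgeR adjusted p = 1.9e-06), lower in lung. Col1a2 (0.74 ± 0.10), Col18a1 (0.74 ± 0.08), Col11a1 (0.67 ± 0.16) and Col5a2 (0.50 ± 0.09) were also higher. Col4a2 (-1.39 ± 0.09), Col4a1 (-1.21 ± 0.09), Col6a1 (-1.15 ± 0.13), Col6a3 (-1.04 ± 0.27), Col6a2 (-1.01 ± 0.13), Col4a5 (-0.86 ± 0.16) and Col16a1 (-0.54 ± 0.09) were also lower. Both type I chains were thus higher in lung fibroblasts, and the type VI trio was lower with Col4a1, Col4a2, Col4a4 and Col4a5. Col3a1 did not pass, at 0.22 ± 0.18 (edgeR adjusted p = 0.32). The marker lists differed as well. Fibroblast markers summed to 2210 to 2798 CPM in lung and 5505 to 6153 CPM in heart fibroblasts, endothelial markers to 14.8 to 21.8 CPM and 236 to 264 CPM, mesothelial markers to 261 to 275 CPM and 49.6 to 67.6 CPM, and macrophage markers to 934 to 1219 CPM and 180 to 202 CPM. Their part in the collagen differences was not tested.

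In iECs the largest organ differences were lower values in lung of Col8a1 (-3.01 ± 0.20, edgeR adjusted p = 1.0e-08), Col14a1 (-2.14 ± 0.30, edgeR adjusted p = 6.7e-05) and Col6a2 (-2.05 ± 0.14, edgeR adjusted p = 2.5e-09), and Col4a6 (1.12 ± 0.17, edgeR adjusted p = 5.4e-05) was the one chain of at least 10 CPM that was higher. Col15a1 (-1.66 ± 0.20), Col3a1 (-1.32 ± 0.18), Col6a3 (-1.28 ± 0.28), Col6a1 (-0.995 ± 0.13), Col5a1 (-0.92 ± 0.10), Col11a1 (-0.87 ± 0.16), Col4a2 (-0.86 ± 0.09) and Col5a3 (-0.84 ± 0.16) were lower as well, and to a smaller extent Col16a1 (-0.82 ± 0.09), Col4a1 (-0.68 ± 0.09), Col5a2 (-0.67 ± 0.09) and Col1a1 (-0.50 ± 0.11). The call was lost for Col28a1 (-0.76) without heart iEC replicate 1 or 2, or lung iEC replicate 3 (log2 change -0.78, -0.67 and -0.59), for Col4a5 (-0.47) without heart iEC replicate 1, 2 or 3, or lung iEC replicate 1 or 3 (log2 change -0.46, -0.49, -0.47, -0.43 and -0.42) and for Col18a1 (-0.25) without lung iEC replicate 2 (log2 change -0.21). In ECs the largest were Col6a2 (-3.99 ± 0.15, edgeR adjusted p = 4.7e-13), Col6a1 (-3.85 ± 0.14, edgeR adjusted p = 1.7e-13) and Col8a1 (-3.64 ± 0.21, edgeR adjusted p = 7.3e-10), all lower in lung. Col18a1 was higher in lung ECs, at 0.67 ± 0.07 (edgeR adjusted p = 5.5e-07), and Col12a1 was higher at 0.51 ± 0.19 (edgeR adjusted p = 0.032), a call lost without heart EC replicate 1 or 3, or lung EC replicate 1 or 3 (log2 change 0.41, 0.53, 0.54 and 0.42). Col28a1 (-3.55 ± 0.30), Col3a1 (-3.23 ± 0.19), Col6a3 (-2.88 ± 0.29), Col16a1 (-1.69 ± 0.09), Col14a1 (-1.64 ± 0.31), Col4a5 (-1.61 ± 0.16) and Col1a1 (-1.60 ± 0.12) were lower. So were Col4a4 (-1.48 ± 0.24), Col23a1 (-1.34 ± 0.14), Col5a1 (-1.20 ± 0.10), Col5a3 (-1.22 ± 0.17), Col1a2 (-1.19 ± 0.10), Col4a6 (-1.17 ± 0.17), Col4a2 (-1.10 ± 0.09), Col4a1 (-0.92 ± 0.09) and Col5a2 (-0.65 ± 0.09). Col15a1 in ECs of the 2 organs overlapped, at 0.04 ± 0.20 (edgeR adjusted p = 0.89).

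The differences of iECs and of ECs from fibroblasts also varied by organ. The difference of the iEC change against fibroblasts, lung minus heart, was called for 19 of 35 chains, 7 of them positive and 12 negative, against 25.2% of all genes. For the EC change it was called for 21, 4 positive and 17 negative, against 34.5%. Type I collagen was among them: the iEC change of Col1a1 was lower in lung, at -1.27 ± 0.16 (edgeR adjusted p = 1.1e-05), and so was that of Col1a2, at -0.93 ± 0.14 (edgeR adjusted p = 7.7e-05). The iEC rise of Col15a1 was smaller in lung, at -3.10 ± 0.30 (edgeR adjusted p = 2.4e-06), while Col5a3 rose more, at 1.59 ± 0.24 (edgeR adjusted p = 1.2e-04).

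The genes that fold, trim, bind and break down collagen were examined from 4 lists. Values are log2 changes ± SE against fibroblasts of the organ, all at an edgeR adjusted p under 0.05 unless its p is given. A called value is given only where the gene was among the 4 largest called changes of its list in that comparison. Its higher group also had to reach 10 CPM. A comparison left out for a gene may therefore still hold a called change. Of 21 tested genes for folding and modification inside the cell, 8 were higher and 7 lower in heart iECs, 4 and 13 in lung iECs, 9 and 5 in heart ECs and 2 and 17 in lung ECs. The shares of all genes above and below the fibroblast level were 26% and 24.6% for heart iECs, 25.9% and 24.7% for lung iECs, 24.2% and 23.3% for heart ECs and 29.3% and 28.7% for lung ECs. Called in either direction were 71.4%, 81%, 66.7% and 90.5% of the folding genes, against 50.7%, 50.6%, 47.4% and 58.1% of all genes, and the same 4 shares of all genes apply to the lists that follow. Fkbp14, a folding helper of the endoplasmic reticulum, was higher in heart iECs (2.16 ± 0.07), lung iECs (2.59 ± 0.07) and heart ECs (1.01 ± 0.07). Tmem38b, an ion channel needed for collagen assembly, was lower in heart iECs (-2.22 ± 0.10), lung iECs (-1.77 ± 0.10) and lung ECs (-1.45 ± 0.10). P4ha3, a proline hydroxylase subunit, was lower in lung iECs (-2.31 ± 0.17) and lung ECs (-2.37 ± 0.17).

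Of 14 tested genes for processing and crosslinking outside the cell, 5 were higher and 7 lower in heart iECs, 3 and 9 in lung iECs, 6 and 3 in heart ECs and 4 and 9 in lung ECs, or 85.7%, 85.7%, 64.3% and 92.9% called (all genes 50.7%, 50.6%, 47.4% and 58.1%). Adamts2, which trims the front end of fibrillar chains, was lower in heart iECs (-1.78 ± 0.12), lung iECs (-2.36 ± 0.12), heart ECs (-1.07 ± 0.12) and lung ECs (-3.60 ± 0.13). Pcolce, a helper of the enzyme that trims the back end, was lower in heart iECs (-1.996 ± 0.17), lung iECs (-2.79 ± 0.18) and lung ECs (-3.84 ± 0.18). Lox, a crosslinking enzyme, was lower in lung iECs, at -2.30 ± 0.11 (edgeR adjusted p = 1.1e-11), and measured -0.09 ± 0.11 (edgeR adjusted p = 0.52) in heart iECs. Of 11 tested receptors, 4 were higher and 3 lower in heart iECs, 4 and 5 in lung iECs, 4 and 4 in heart ECs and 5 and 5 in lung ECs, or 63.6%, 81.8%, 72.7% and 90.9% called, beside the same shares of all genes. Itga11, an integrin chain for fibrillar collagen, rose in heart iECs (2.02 ± 0.14) and fell in lung iECs (-2.05 ± 0.14) and lung ECs (-2.69). Adgrg1, a receptor that binds type III collagen, was higher in heart ECs (3.04 ± 0.17) and lung ECs (4.53 ± 0.18). Of 11 tested genes for breakdown, 2 were higher and 6 lower in heart iECs, 3 and 7 in lung iECs, 2 and 4 in heart ECs and 3 and 7 in lung ECs, or 72.7%, 90.9%, 54.5% and 90.9% called, again beside 50.7%, 50.6%, 47.4% and 58.1% of all genes. Mmp2 was lower in heart iECs (-2.60 ± 0.14), lung iECs (-2.46 ± 0.14) and heart ECs (-1.93). Mmp3, a stromal protease, was lower in heart iECs (-4.68 ± 0.40), lung iECs (-4.48 ± 0.40) and lung ECs (-3.56). Mmp9, a protease that macrophages also make, was higher in lung iECs (5.09 ± 0.30) and lung ECs (4.15 ± 0.29), where all 6 macrophage markers were higher as well, and their part in it was not tested. The medians of the 4 lists in heart iECs were 0.14, -0.42, 0.12 and -0.76, and in lung iECs -0.43, -0.82, 0.07 and -1.09, beside 0.02 and 0.00 over all genes.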

How the data were processed

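Expected counts per gene were deposited by the authors in 1 table of 18 libraries, as whole numbers, for 35727 gene IDs. Salmon, DESeq2 and mm10 are named in the submitters' processing notes, and versions and settings are not given in the sources used here. The labels name an RNeasy kit and an mRNA library and do not say whether strand was used. Reads in exon bases shared by genes on opposite strands may therefore not have been told apart. Bases shared with any 1 other gene were at most 6.07% of a chain's exons (Col9a3), and 22 bases for Col4a1 and Col4a2. Gene positions, lengths and biotypes came from GENCODE M21 (GRCm38), and 250 bases before to 50 bases after each start from RefSeq (GRCm38.p6).

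Genes were kept by edgeR's filterByExpr (99.97% of counts), scaled by TMM and fitted by edgeR 4.0.16 quasi-likelihood (R 4.3.3) with 1 term per group over all 6 groups, with 12 residual degrees of freedom. Contrasts were adjusted by Benjamini-Hochberg over 14864 genes, with 0.05 as the threshold. The SE of a log2 change is its absolute value divided by the square root of the quasi-likelihood F statistic. CPM is counts per 1000000 of the TMM-scaled library size. Called chains whose higher group reached 10 CPM are named in each contrast. Values in every library are given for chains with a group mean of at least 100 CPM, and for the 3 largest called changes in each direction among those named. On simulated counts for heart iECs against heart fibroblasts, 56 of 57, 72 of 72 and 70 of 71 genes changed by a log2 of 1, 2 and 3 were recovered. Of the simulated calls 4.35% were false. The simulation gave every gene the same spread and left most genes unchanged. It therefore does not cover smaller changes, genes with a larger spread or the many changes of the real data. Of 45 correlations of deviations from the group mean between libraries with the same replicate number, 1 was over 0.1 (range -0.398 to 0.117). Such values cannot settle whether the numbers pair the libraries. Alternatives used DESeq2 1.42.0, other scalings, filters, sample sets and glmTreat. Figures and tables used Python 3.11.15, pandas 2.3.3, SciPy 1.17.1 and matplotlib 3.10.9. The members, lists and tests were chosen with earlier results of these data known.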

Additional observations from a re-analysis of the deposited data

Results flagged for a closer look

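For 37 results the change against fibroblasts differed between lung and heart. The test was of the difference itself, an interaction contrast in edgeR adjusted over all genes. A chain called in both iECs and ECs is a result in each, so 37 is not a number of chains. Of all 35 tested chains, 54.3% were called for iECs and 60% for ECs. Among all genes tested the shares were 25.2% and 34.5%. Each value below is the log2 change in lung minus the log2 change in heart, so that a negative value is a change that was lower in lung. All groups have 3 libraries, so single outlying libraries were not tested. The iEC and EC values share the fibroblast libraries and are not independent.

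In iECs the difference was negative for the fibrillar chains Col1a1 (-1.27), Col1a2 (-0.93), Col3a1 (-1.54), Col5a1 (-0.76), Col5a2 (-1.18) and Col11a1 (-1.54) and positive for Col5a3 (1.59). It was negative for the FACIT chains Col12a1 (-2.43) and Col14a1 (-1.78), for Col6a2 (-1.04) and Col8a1 (-1.27), and for the multiplexins Col15a1 (-3.10) and Col18a1 (-0.997), both of which rose in iECs of both organs. Col12a1 rose in heart iECs and fell in lung iECs. Positive differences were found for the basement membrane chains Col4a1 (0.53), Col4a2 (0.54), Col4a4 (1.72) and Col4a6 (1.49). The Col4a4 call was lost without lung iEC replicate 1 (log2 change 1.44).

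In ECs the difference was negative for Col1a1 (-2.36), Col1a2 (-1.94), Col3a1 (-3.45), Col5a1 (-1.04), Col5a2 (-1.16) and Col11a1 (-0.75) and positive for Col5a3 (1.21). All 3 abundant type VI chains had negative values, Col6a1 at -2.69, Col6a2 at -2.98 and Col6a3 at -1.84. So did Col8a1 (-1.91), Col12a1 (-1.57), Col14a1 (-1.28), Col16a1 (-1.15), Col15a1 (-1.40) and Col28a1 (-3.75), the last the largest in size among the 37. The basement membrane chains were split, with positive values for Col4a3 (2.81) and Col4a4 (1.499) and negative ones for Col4a5 (-0.74) and Col4a6 (-0.80). The Col14a1 call was lost without heart EC replicate 2, or heart FB replicate 1, 2 or 3, or lung EC replicate 1 or 2, or lung FB replicate 2 or 3 (log2 change -1.15, -1.31, -1.27, -1.26, -1.19, -1.09, -1.20 and -1.20). The Col4a5 call was lost with a filter of 1 count, at -0.70 and an edgeR adjusted p of 0.0541.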

How the results depend on the processing

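Counts of called chains moved by over 1.5 times under edgeR's glmTreat against a log2 change of 1, which by construction drops smaller changes: to 14 in heart iECs, 12 in lung iECs and 7 in heart ECs against fibroblasts, 12 and 9 for iECs against ECs in heart and lung, 8, 4 and 11 for lung against heart in fibroblasts, iECs and ECs, and 3 and 8 for the organ differences of iECs and ECs. In lung ECs it left 20. Divided by merged exon length, collagen made up 1.87%, 1.85% and 1.67% of counts per kb in heart fibroblasts, iECs and ECs, and 2.03%, 1.20% and 0.734% in lung, a different quantity from the share of counts. DESeq2, RLE scaling, TMM without collagen genes, 2 other filters and fits of only the groups compared kept every count within 1.5 times. Of 198 named results none reversed, 109 lost their call under glmTreat, 9 with a filter of 1 count, 6 with only the groups compared, 2 with RLE scaling and none under DESeq2. In the 63 results on other pathway genes, alternatives that were added after seeing the data, 14 lost their call under glmTreat.

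Leaving out 1 library in turn gave 21 to 23 called chains in heart iECs, 19 to 25 in lung iECs, 15 to 17 in heart ECs and 23 to 28 in lung ECs. It gave 16 to 20 and 22 to 25 for iECs against ECs in heart and lung, 19 to 20, 19 to 23 and 22 to 25 between organs in fibroblasts, iECs and ECs, and 18 to 22 and 20 to 22 for the organ differences. The shares ranged from 4.35% to 4.49%, 4.001% to 4.11% and 3.72% to 3.86% in heart fibroblasts, iECs and ECs, and from 5.02% to 5.52%, 2.66% to 3.03% and 1.63% to 1.85% in lung. Of the named results, 16 lost their call without some library. The Col8a1 to Col8a2 ratio was not run, since Col8a2 had no count in 2 libraries.

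The labels do not say whether the replicate numbers pair the libraries. With the replicate number as a block, the counts were 23 in heart iECs, 20 in lung iECs, 17 in heart ECs and 25 in lung ECs against fibroblasts, 19 and 24 for iECs against ECs, 19, 21 and 22 between organs, and 19 and 20 for the organ differences. The block ended 3 named calls, Col6a3 in lung iECs against fibroblasts, Col28a1 in lung iECs against heart iECs and the organ difference of Col14a1 in ECs.

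With 3 libraries a group, no permutation of a ratio can reach 0.05. Cell purity, culture and RNA content could not be separated in bulk libraries, and chains under 1 CPM rest on few counts.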
